A study of Mus musculus with 16 samples.

Results

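CD9+ macrophages and neutrophils of the healing bone-tendon interface tissue were compared on day 1 after anterior cruciate ligament reconstruction (ACLR). The harvest also took a sliver of underlying bone, and the study states that some cell types could lie in bone around the tunnel. How much of any value came from cells of bone or marrow was not tested. The comparison rests on 4 of the 16 bulk RNA-seq libraries of the study, 2 of CD9+ macrophages and 2 of neutrophils, which were taken by the names of their columns in the deposited table of counts. All mice were 12-week-old male wild-type C57BL/6 animals, and all had been operated: the ligament of the right knee was rebuilt with the flexor digitorum longus tendon passed through bone tunnels in femur and tibia. Cells of the interface tissue were pooled from 5 to 7 mice for each library, so the replicates are pools. The total of mice that the study gives is too small for separate mice behind every library, so some libraries shared mice. Which libraries shared them is not stated, and the labels do not say whether same-numbered pools of both populations did. The main model treated the libraries as unpaired, and a fit with a replicate block is given at the end. CD9+ macrophages had been sorted as live CD45+ cells without lineage markers and without Ly6G that carried CD11b, F4/80 and CD9, and the rare cells with both CD9 and CX3CR1 fell into the same gate. Neutrophils had been sorted as live CD45+ cells without lineage markers that carried CD11b and Ly6G, and the study describes them as carrying Ly6C as well. No unoperated control belongs to this comparison, and the other libraries used beside it are those of CX3CR1+ macrophages and F4/80− myeloid cells on day 1 and of the same CD9+ and neutrophil gates on day 14.

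Neutrophils are short-lived granulocytes that leave the bone marrow with most of their granule proteins already made and are the first leukocytes to enter an injury. Monocytes follow, and they become macrophages, which clear dead cells, present antigen and lay down or degrade matrix. Both cell types derive from the same myeloid progenitors and share many receptors and enzymes, so their comparison asks which programs of an acute wound are carried by which cell. CD9 is a tetraspanin, a membrane protein that organizes receptors and integrins, and it is carried by macrophages, platelets, eosinophils and other cells.

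The 2 populations differed widely, and the differences ran in both directions. In the model, 5945 of 11998 genes were differentially expressed (DEGs, 49.5%), defined by an adjusted p below 0.05 in edgeR's quasi-likelihood test and a log2 fold change of at least 1 in either direction. Of all genes tested, 3344 (27.9%) were higher in CD9+ macrophages and 2601 (21.7%) were lower. The counts of the gene lists below are to be read beside these shares, and a count near them is no result about the list. Large differences were common in both directions: 241 genes were higher and 242 lower by a log2 fold change of at least 4. At 6 or more, genes lower in CD9+ macrophages outnumbered those higher, 90 against 40. Over all genes tested the median difference was 0.06 on the log2 scale, and in 5864 of the DEGs the 2 CD9+ libraries and the 2 neutrophil libraries did not overlap. Without regard to the test, both CD9+ libraries lay above both neutrophil libraries in 39.0% of genes and below them in 38%, so a gene without overlap is not by itself unusual here. With 2 libraries against 2, an exact permutation test of a single gene cannot go below p = 0.333, and all p-values here come from the model of all 16 libraries.

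The split between higher and lower genes depended on the scaling. Levels are given as CPM, the counts of a gene relative to all counts of its library, with library sizes multiplied by the trimmed mean of M-values (TMM) factors of edgeR, which were 0.752 and 0.766 in neutrophils and 1.01 and 0.897 in CD9+ macrophages. With library size alone, 4037 genes were higher and 1881 lower, so that the higher share of DEGs went from 56.2% to 68.2% and the median of all genes moved up by 0.33. With the upper quartile method it was 3781 and 2126, a higher share of 64.0% and a shift of 0.21, whereas the size factors of DESeq2 moved the median by -0.03. A shift of this size carries genes that lie near the fold threshold across it: with library size scaling the number of higher or lower genes changed in 28 of the 50 gene lists, by 10 genes at most, and the changed number is given beside those lists described here in which it moved by over 1.5 times.

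Total counts were 14059144 and 10587857 in the CD9+ libraries and 17789819 and 14933365 in the neutrophil libraries. Mitochondrially encoded genes took 17.7% and 11.9% of the counts of CD9+ macrophages and 6.51% and 4.88% of those of neutrophils. The CD9+ libraries of day 1 were the least alike of the 8 pairs of replicates, with 2154 genes more than 2-fold apart (SD of the log2 differences 0.912), whereas in day 1 neutrophils 1175 genes were (SD 0.625). In bulk RNA, fewer cells of a type and less RNA per cell cannot be told apart, and this holds for every value below.

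**Figure D1:**
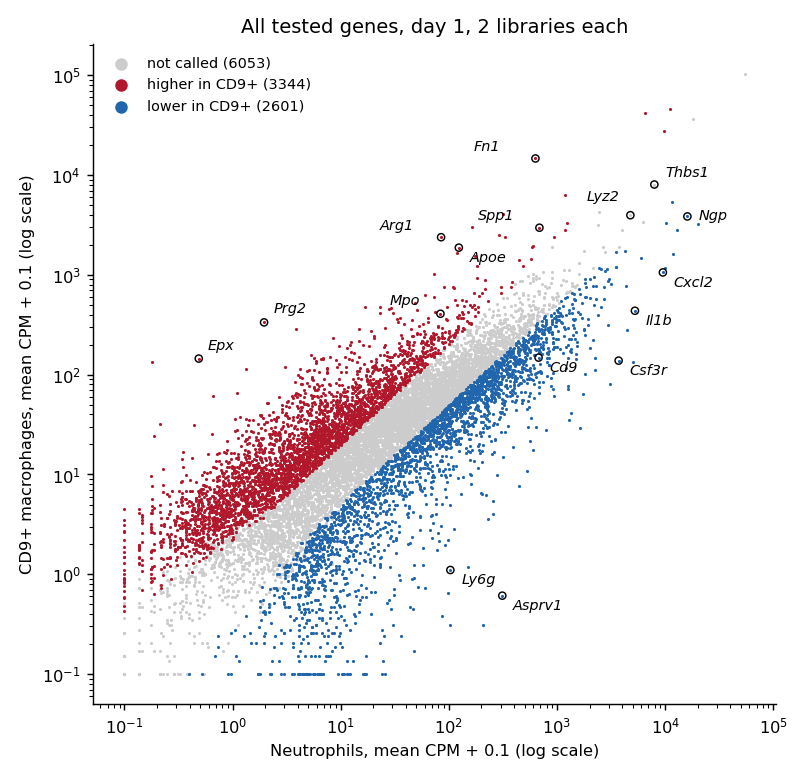
Mean CPM of each tested gene in neutrophils (horizontal, log scale) and CD9+ macrophages (vertical, log scale) on day 1, 2 libraries each, with 0.1 added so that genes at 0 can be drawn. Red points are the 3344 genes higher in CD9+ macrophages, blue points the 2601 lower, grey points the genes not called, and circles mark genes named in the text, such as Fn1 far above and Ly6g far below the diagonal.

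Ly6g and Adgre1 RNA were higher in the cells sorted for their proteins, whereas Cd9 RNA was not. The neutrophil gate selected on neither F4/80 nor CD9. Ly6g, the surface antigen by which neutrophils were sorted, had 1.90 and 0.105 CPM in CD9+ macrophages and 125 and 81.4 in neutrophils (log2 fold change -6.48 ± 0.46 SE, adjusted p = 1.84e-08; -9.82 without the first CD9+ library). Adgre1, which encodes F4/80, had 120 and 159 CPM against 41.2 and 43.5 and was higher in CD9+ macrophages (1.72 ± 0.22, adjusted p = 6.45e-06). Neither gene overlapped between the populations, although Adgre1 counts were well above 0 in the neutrophil libraries. Cd9 (chr6:125460266-125494791, the span of the whole gene in mm10, as are all positions given this way) had 148 CPM in both CD9+ libraries and 676 and 673 in both neutrophil libraries, so its RNA was 4.55-fold lower in the cells sorted for the CD9 protein (-2.19 ± 0.13, adjusted p = 3.96e-09).

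Over the day 1 populations, Cd9 RNA was highest in neutrophils, followed by CD9+ macrophages, F4/80− myeloid cells at 108 CPM on average and CX3CR1+ macrophages at 19.7. Comparisons with the latter gates share the CD9+ libraries with the comparison with neutrophils, and fewer genes passed the thresholds there: 8.23% of genes against CX3CR1+ macrophages (6.36% higher and 1.88% lower in CD9+ macrophages) and 15.4% against F4/80− cells (9.23% higher and 6.16% lower). Cd9 was higher in CD9+ than in CX3CR1+ macrophages (log2 fold change 2.91 ± 0.14) and did not pass the fold threshold against F4/80− cells (0.46 ± 0.13). Cx3cr1, the fractalkine receptor, had 72.7 and 93.4 CPM in CD9+ macrophages and 8.22 and 9.80 in neutrophils (3.20 ± 0.20), and it averaged 140 in CX3CR1+ macrophages. Itgam (CD11b) and Ptprc (CD45), surface proteins of both cells, were lower in CD9+ macrophages, at log2 fold changes of -1.48 and -1.54. Ly6c2 did not pass the test, with 195 and 220 CPM against 349 and 195.

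**Figure D2:**
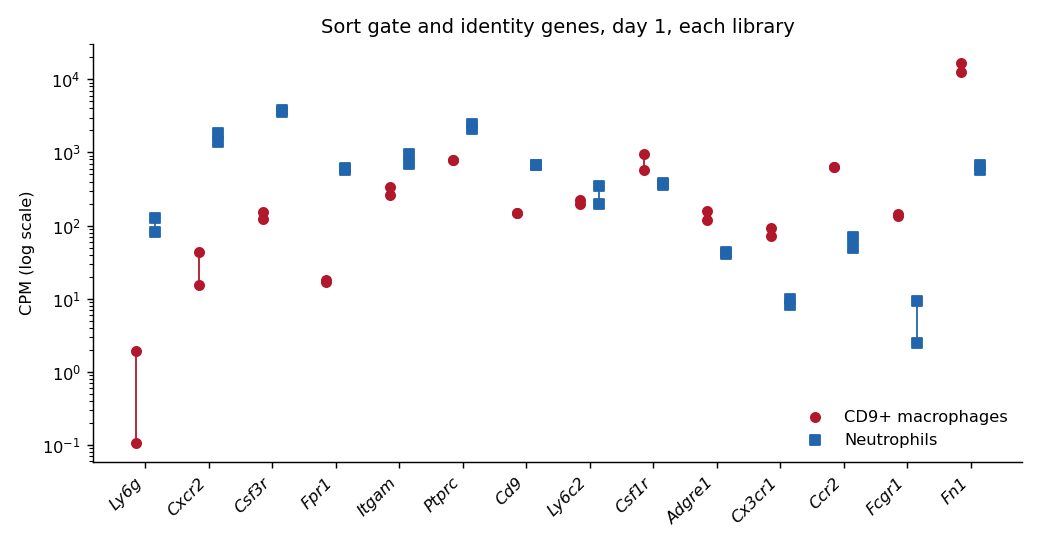
CPM on a log scale of sort gate and identity genes in each day 1 library of CD9+ macrophages and neutrophils; each point is 1 library. The 2 libraries of a population lie close together for most genes, Cd9 is higher in neutrophils, and Ly6c2 overlaps.

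Receptors by which neutrophils are called into tissue and respond to microbes were lower in CD9+ macrophages. Of 20 neutrophil surface receptor and marker genes, which include Ly6g of the gate, 20 were lower, with a median log2 fold change of -4.18. Csf3r (chr4:126024550-126044440), the receptor for granulocyte colony-stimulating factor, had 155 and 121 CPM in CD9+ macrophages and 3623 and 3795 in neutrophils (-4.75 ± 0.17, adjusted p = 1.58e-10). Cxcr2, the receptor for the chemokines CXCL1 to CXCL3 and the main guide of neutrophils into tissue, had 43.1 and 15.2 against 1863 and 1393 (-5.78 ± 0.45). Cxcr1 had no count in either CD9+ library and 9.27 and 11.4 CPM in neutrophils, which makes it at least 39.1-fold lower when CD9+ macrophages are set at 3 counts per library. Fpr1, which senses formylated bacterial peptides, and Il1r2, the decoy receptor that binds interleukin 1 without signaling, were 34.1-fold and 28.8-fold lower. The smallest difference of the list was that of Ltb4r1, the leukotriene B4 receptor, which was 2.69-fold lower. No member overlapped between the populations, and the 4 genes that the study used as neutrophil markers (Csf3r, Cxcr2, Clec5a and Sgms2) were all lower.

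Neutrophil granules did not follow one direction. They form in sequence, azurophil granules in promyelocytes and specific and gelatinase granules later, so their transcripts mark stages of maturation. Of 16 genes listed for specific and gelatinase granules, 12 were lower in CD9+ macrophages, none was higher, and the median was -2.40. The list includes the receptor gene Ltb4r1, and Ltb4r1 and Cd177 are counted in the surface receptor list above as well. Mmp8, neutrophil collagenase, had 86.7 and 73.3 CPM in CD9+ macrophages and 3755 and 2468 in neutrophils (-5.28 ± 0.31). Mmp9, the gelatinase, had 186 and 82.9 against 6028 and 4116 (-5.23 ± 0.53). Of the azurophil granule genes, which encode the first granule proteins to be made, 5 of 6 were higher in CD9+ macrophages and none lower, at a median of 2.31.

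Mpo (chr11:87793581-87804413), myeloperoxidase, had 491 and 324 CPM in CD9+ macrophages and 113 and 53.5 in neutrophils (2.29 ± 0.36, adjusted p = 5.24e-05). Elane, neutrophil elastase, had 185 and 114 against 39.4 and 19.6 (2.34 ± 0.41), and Prtn3, proteinase 3, had 107 and 96.4 against 19 and 9.36 (2.83 ± 0.33). In each of these genes both CD9+ libraries were above both neutrophil libraries. All 3 were higher in F4/80− myeloid cells than in CD9+ macrophages, with Mpo at 1726 CPM on average, and lower in CX3CR1+ macrophages, with Mpo at 71.4.

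Specific granule transcripts were nevertheless present in the CD9+ libraries, and they set the 2 CD9+ replicates apart. Ngp, neutrophilic granule protein, had 6196 and 1504 CPM in CD9+ macrophages and 20480 and 11596 in neutrophils (-2.06 ± 0.50, adjusted p = 0.00196). Ltf, lactotransferrin, had 4170 and 1451 against 16134 and 9386 (-2.18 ± 0.52). In both genes the first CD9+ library was the higher of the pair by more than 2-fold and still lay under both neutrophil libraries, and without it the log2 fold change of Ngp was -3.42. Ngp averaged 26 CPM in CX3CR1+ macrophages and 12143 in F4/80− cells, and the sum of the 16 genes was 20910 and 9937 CPM in CD9+ macrophages, 8678 to 8924 in CX3CR1+ macrophages, where Lyz2, which macrophages also express, made up 6485 and 6695 of it and Ltf was at 8.05 and 25.8, 33218 to 38403 in F4/80− cells and 47083 to 76281 in neutrophils. The part of other cells in the CD9+ gate in these values was not tested, and Ly6g itself was at 1.90 and 0.105 CPM there. Camp, Orm1, Lyz2 and Chil3 of this list did not pass the thresholds, and their libraries overlapped. Camp and Orm1 were called lower without the first CD9+ library (-1.69 and -2.37) and without the second neutrophil library (-1.30 and -1.25).

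The genes of calprotectin, an abundant cytosolic protein of neutrophils, were lower in CD9+ macrophages as well. S100a8 had 1895 and 443 CPM in CD9+ macrophages and 12578 and 7485 in neutrophils (-3.10 ± 0.48), and S100a9, its partner in the calcium-binding complex, had 4837 and 1557 against 25628 and 14792 (-2.66 ± 0.46). Of 8 S100 genes tested, 4 were lower and 3 higher in CD9+ macrophages. Among the higher was S100a10, the annexin A2 partner, with 228 and 209 CPM against 20.4 and 8.84 (3.89 ± 0.30). S100a4, a gene of motile macrophages and fibroblasts, had 1.55 and 3.68 CPM against no count in either neutrophil library, at least 10.8-fold higher when neutrophils are set at 3 counts per library.

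Macrophage identity genes were mostly higher in CD9+ macrophages. Of 20 such genes, which include Adgre1 of the gate, 16 were higher and 1 was lower, with a median log2 fold change of 3.54. Msr1, the class A scavenger receptor, had 226 and 344 CPM against 14.6 and 14.4 in neutrophils (4.29 ± 0.25), and Fcgr1, the high affinity Fc receptor, had 135 and 142 against 9.27 and 2.45 (4.53 ± 0.49). Lgmn, the lysosomal endopeptidase legumain, and C1qb, a chain of the first complement component, were 16.5-fold and 15.3-fold higher. None of these overlapped. Mertk, the receptor by which macrophages take up dying cells, was at 36.6 and 29.6 CPM against 2.77 and 1.14 (4.06 ± 0.61).

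Some markers of this lineage went against the rest of the list or lay near the threshold. Cd14, a co-receptor for endotoxin often used to mark monocytes, was lower in CD9+ macrophages, at 385 and 618 CPM against 2023 and 2407 (-2.14 ± 0.20, adjusted p = 2.11e-07). Csf1r, the receptor for macrophage colony-stimulating factor, had 575 and 937 against 364 and 381 and only just reached the threshold (1.02 ± 0.19), and it was not called without the second CD9+ library (0.62) or the first neutrophil library, or with DESeq2 (0.99). Of the 4 genes that the study used as macrophage markers, 3 did not pass the thresholds (Cd68, Metrnl and F10, at log2 fold changes of 0.74, 0.11 and 0.65) and Emilin2 was lower in CD9+ macrophages, at the fold threshold (with library size scaling Cd68 was higher, at 1.07, and Emilin2 was not called), with 666 and 1149 CPM against 1680 and 1960, and was not called under 8 of the 13 alternatives.

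Genes of recently recruited monocytes were mostly higher in CD9+ macrophages: 10 of 15 were higher, 2 were lower (1 with library size scaling), at a median of 3.20. Fn1 (chr1:71585520-71653200), fibronectin, had 12624 and 16698 CPM in CD9+ macrophages and 682 and 580 in neutrophils (4.54 ± 0.26, adjusted p = 3.74e-09). Ccr2, the chemokine receptor that brings monocytes out of the marrow, had 636 and 635 against 69.3 and 49.7 (3.42 ± 0.24). F13a1, the clotting factor XIII A chain, and Vcan, the matrix proteoglycan versican, were 13.9-fold and 14.1-fold higher. All 4 were separated without overlap. In CX3CR1+ macrophages Fn1 averaged 10855 CPM and did not differ from CD9+ macrophages at the thresholds (0.43 ± 0.23), whereas Ccr2 averaged 1442 and was lower in CD9+ macrophages than there (-1.18 ± 0.22). Klra2 and Gpr141 of this list were lower in CD9+ macrophages than in neutrophils.

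**Figure D3:**
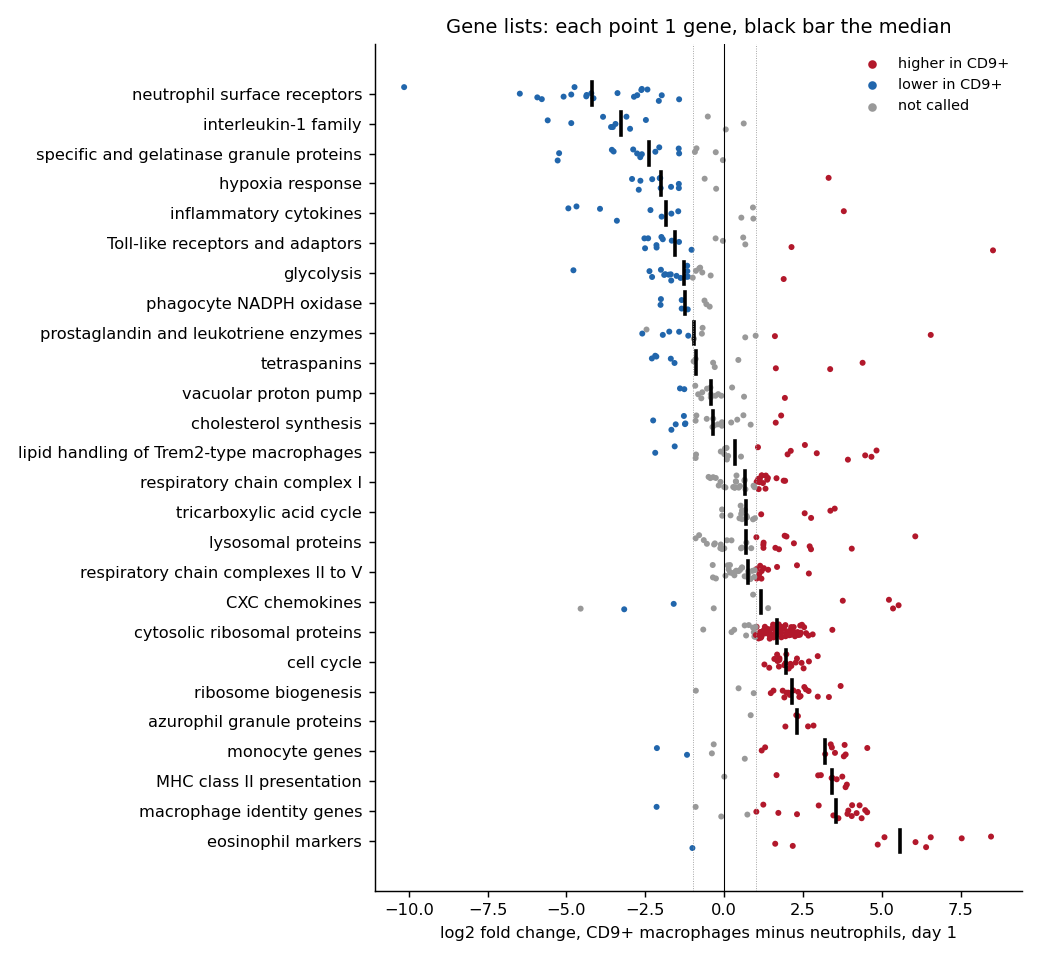
Log2 fold change of CD9+ macrophages minus neutrophils on day 1 for each tested gene of 26 lists; each point is 1 gene, coloured by its call, and the black bar is the median of the list. The medians run from -4.18 for neutrophil surface receptors to 5.58 for eosinophil markers, beside 0.06 for all genes, and the points of genes without a count in one population (Cxcr1, Tlr3) depend on the prior count of the fit.

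Genes of interleukin 1 and its regulators were mostly lower in CD9+ macrophages. This cytokine is released by damaged and infected tissue and starts much of acute inflammation, and its antagonist and decoy receptor hold it back. Of 12 genes of the interleukin-1 family that were tested, 9 were lower in CD9+ macrophages and none higher (median -3.27). Il1b (chr2:129364570-129371139) had 368 and 506 CPM in CD9+ macrophages and 4348 and 6146 in neutrophils (-3.59 ± 0.20, adjusted p = 2.13e-09). It averaged 448 CPM in CX3CR1+ macrophages, a log2 fold change of -0.04 ± 0.18 between the macrophage gates, and 75.2 in F4/80− cells, where it was lower than in CD9+ macrophages (2.54 ± 0.19). The antisense gene Il1bos overlaps Il1b and moved with it, and as the strand setting of the counting is not given, the reads of both cannot be told apart.

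The other ligand and the brakes of the family moved the same way. Il1a had 65.2 and 67.5 CPM against 202 and 540 (-2.48 ± 0.41), and without the second neutrophil library, the higher one, the difference was -1.61. Il1rn, the receptor antagonist, had 164 and 208 against 1523 and 2535 (-3.45 ± 0.25). Il1f9, an epithelial-type member that encodes IL-36γ, was 48.4-fold lower in CD9+ macrophages. Nlrp3, the sensor of the inflammasome that matures IL-1β, was lower as well (129 and 248 against 849 and 1569 CPM), and Nlrc4, a sensor of bacterial flagellin, was higher (30.2 and 37.6 against 6.50 and 5.51). Over 13 inflammasome and pyroptosis genes, 3 were higher and 5 lower, beside 27.9% higher and 21.7% lower among all tested genes. Casp1 did not pass the thresholds (0.18).

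Among 12 other inflammatory cytokines, 8 were lower in CD9+ macrophages and 1 was higher (median -1.83), while library size or upper quartile scaling, or leaving out the second neutrophil library, gave 3 higher, and leaving out the first CD9+ library gave 4. Tnf (chr17:35199381-35202007) had 58.0 and 71.7 CPM against 450 and 919 (-3.40 ± 0.25, adjusted p = 2.20e-08). Csf1, the growth factor of macrophages, had 53.1 and 69.4 against 685 and 1187 (-3.94 ± 0.23), so the ligand was lower and its receptor Csf1r higher in the macrophages. Il23a, a subunit of interleukin 23, had 2.75 and 1.68 against 39.3 and 100 (-4.94 ± 0.55). In all 3 genes the second neutrophil library was the higher one and both were above both CD9+ libraries. The single member that was higher was Il6, at 2.75 and 4.32 CPM against 0.448 and 0, where few reads stand behind the neutrophil values and the fitted fold change hangs on the first neutrophil library.

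Chemokines were divided between the populations. CXCL1, CXCL2 and CXCL3 draw neutrophils through CXCR2, and CC chemokines draw monocytes, lymphocytes and eosinophils. Cxcl2 (chr5:90903871-90905938) had 835 and 1280 CPM in CD9+ macrophages and 6760 and 12274 in neutrophils (-3.17 ± 0.34, adjusted p = 1.02e-06), and Cxcl3 had 488 and 716 against 1231 and 2420 (-1.60 ± 0.37, and -1.04 without the second neutrophil library). Cxcl1, from the same gene cluster, had 25.1 and 41.9 against 8.97 and 26.5 and overlapped (0.92 ± 0.56), but was called higher in CD9+ macrophages without the second neutrophil library (1.89). Neutrophils thus had more RNA for 2 of these ligands of their own receptor.

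The promoters of these 3 genes are shown because the genes lie in the same cluster and did not move alike. In the 250 bases before the RefSeq start, each held at least one kappa B site (GGG, any 2 letters, then TTTCC, on either strand), which was true of 1.65% of the 27025 genes with a promoter in the table and of 3 of 10 CXC chemokines. The windows of 48 bases are from GRCm38.p6, 5′ to 3′ on the strand of the gene, with matches in capitals, and lie at chr5:90891155-90891202 (+), chr5:90903783-90903830 (+) and chr5:90786009-90786056 (+).
Cxcl1: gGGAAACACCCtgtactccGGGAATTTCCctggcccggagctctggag
Cxcl2: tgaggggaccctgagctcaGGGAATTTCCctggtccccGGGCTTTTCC
Cxcl3: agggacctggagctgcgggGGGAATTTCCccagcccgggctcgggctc
One site had the same letters in all 3 promoters, whereas the log2 fold change was 0.92 for Cxcl1, -3.17 for Cxcl2 and -1.60 for Cxcl3. A match describes the letters only.

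Of the 10 CXC chemokines tested, 4 were higher in CD9+ macrophages, namely Cxcl16, Cxcl14, Pf4 and Ppbp. Cxcl16, which is also a scavenger receptor, had 71.5 and 79.3 CPM against 4.26 and 6.91 (3.76 ± 0.28). Pf4 and Ppbp are the chemokines of platelet granules, and Pf4 is also made by some macrophages; they had 91.6 and 148 against 2.54 and 3.32, and 27.3 and 43.7 against 0.598 and 1.31. Both lay far above the neutrophil values, and the remaining tested gene of the platelet list, Itga2b, the αIIb integrin, was higher too (2.91). The 6 genes of the platelet list in the deposited counts, tested or not, summed to 147 and 229 CPM in CD9+ macrophages and 7.10 and 9.71 in neutrophils. The part of platelets in this was not tested.

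Of 10 CC chemokines tested, 5 were higher and 2 lower in CD9+ macrophages. Ccl2 (chr11:82035571-82037453), the ligand of CCR2, had 544 and 392 CPM against 26.9 and 31.8 (4.0 ± 0.22, adjusted p = 2.55e-09), and Ccl7, a second ligand of that receptor, had 141 and 154 against 6.28 and 4.72 (4.74 ± 0.32). Ccl3 and Ccl4, the macrophage inflammatory proteins 1α and 1β, went the other way in spite of their names. Ccl3 had 142 and 152 CPM in CD9+ macrophages and 1505 and 3027 in neutrophils (-3.95 ± 0.27), and Ccl4 had 29.0 and 30.5 against 376 and 690 (-4.16 ± 0.30). On the side of the receptors, 5 of 11 were higher, among them Ccr3, also on the eosinophil list, and 6 were lower, among them Ccr1, which also binds CCL3, 6.34-fold.

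Sensors of microbes were mostly lower in CD9+ macrophages. Of 16 Toll-like receptors and adaptors, 10 were lower and 2 higher (median -1.55). Tlr2, which senses bacterial lipopeptides, had 176 and 313 CPM against 592 and 728 (-1.43 ± 0.20), Tlr4, the endotoxin receptor, had 44.8 and 34.9 against 123 and 130 (-1.66 ± 0.16), and Tlr13, which senses bacterial ribosomal RNA, was 3.85-fold lower. The 2 that were higher, Tlr9 and Tlr3, sense DNA and double-stranded RNA inside endosomes. Tlr9 had 32.1 and 52.4 CPM against 11.2 and 7.87 (2.14 ± 0.23), and Tlr3 had 1.83 and 4.95 against no count in neutrophils.

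Genes of antigen presentation by MHC class II were higher in the macrophages. These proteins show peptides from taken-up material to CD4+ T cells. Of 10 genes, 9 were higher in CD9+ macrophages and none lower, at a median of 3.42. H2-Ab1 (chr17:34263209-34269418) had 341 and 376 CPM against 36.8 and 29.6 (3.43 ± 0.19, adjusted p = 2.02e-09), and Ciita, the coactivator on which the whole set depends, had 45.7 and 48.4 against 4.48 and 1.92 (3.85 ± 0.29). H2-DMb2 was not called, at 2.96 and 3.37 against 3.14 and 3.15 CPM. H2-Ab1 averaged 329 CPM in CX3CR1+ macrophages and 224 in F4/80− cells, and neither differed from CD9+ macrophages at the thresholds (0.12 and 0.68).

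Because these genes moved together, 3 of their promoters are shown. A CCAAT box (CCAATCA or CCAATGA on either strand) was found in the 250 bases before the RefSeq start of 6 of the 7 MHC class II genes with a promoter in the table, and in 12.2% of all genes. The windows, again of 48 bases from GRCm38.p6 on the strand of the gene with the box in capitals, lie at chr17:34287846-34287893 (−), chr17:34305786-34305833 (+) and chr17:34238826-34238873 (+).
H2-Aa: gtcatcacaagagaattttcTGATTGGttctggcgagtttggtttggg
H2-Eb1: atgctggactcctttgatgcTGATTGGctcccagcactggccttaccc
H2-Ob: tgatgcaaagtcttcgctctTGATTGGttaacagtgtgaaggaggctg
H2-Aa had 198 and 190 CPM in CD9+ macrophages and 22.4 and 14.0 in neutrophils (3.41), H2-Eb1 had 136 and 201 against 16 and 8.92 (3.75), and H2-Ob had 0.775 and 2.74 against 0.374 and 0.700 (1.66), a call that was lost without the second CD9+ library (0.54) or the first neutrophil library (1.27). The same box was in 10 of 17 cell cycle promoters, whose genes were higher in CD9+ macrophages, and in 12 of 16 cholesterol synthesis promoters, whose genes were divided. The motifs shown were chosen from 6 searched in 38 lists after their counts were seen.

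Enzymes of arginine, the substrate of nitric oxide and of the polyamines of repair, were divided between the 2 cells, with 4 of 9 genes higher and 3 lower in CD9+ macrophages. Arg1 (chr10:24915221-24927484), the cytosolic arginase of wound macrophages, had 2173 and 2594 CPM in CD9+ macrophages and 87.1 and 82.1 in neutrophils (4.82 ± 0.22, adjusted p = 7.67e-10). Arg2, the mitochondrial arginase, had 15.1 and 12.4 against 144 and 166 (-3.49 ± 0.25). Nos2, inducible nitric oxide synthase, had 203 and 284 against 547 and 674 (-1.33 ± 0.32). Acod1, which makes itaconate in activated phagocytes, had 33.4 and 48.6 against 928 and 1737 (-5.03 ± 0.32). Ass1, which rebuilds arginine from citrulline, was 17.0-fold higher in CD9+ macrophages. Arg1 averaged 424 CPM in CX3CR1+ macrophages and 120 in F4/80− cells and was higher in CD9+ macrophages than in either (2.49 ± 0.20 and 4.31 ± 0.22), and Nos2 was higher than in either as well (3.60 and 2.66).

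Lipid handling genes of Trem2-type macrophages, cells known from fat, plaques and injured tissue, were split. Of 20, 9 were higher, 2 were lower and the median was 0.33. Spp1 (chr5:104435118-104441050), osteopontin, had 2573 and 3363 CPM against 616 and 758 (2.11 ± 0.23, adjusted p = 1.04e-06), and Apoe, apolipoprotein E, had 2017 and 1730 against 143 and 104 (3.92 ± 0.23). Trem2, the lipid receptor itself, had 40.7 and 63.9 against 2.47 and 1.57 (4.67 ± 0.42), and Cd36, the fatty acid and lipoprotein receptor, was 28.5-fold higher. The 2 members lower in CD9+ macrophages were Cd9 and Tyrobp, the signaling adaptor of TREM2 and of many other receptors. Abca1, the cholesterol exporter, had 334 and 591 against 360 and 548 and overlapped. Spp1 was also higher in CD9+ than in CX3CR1+ macrophages (2.48 ± 0.23), whereas Apoe was not (0.37 ± 0.21).

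Lysosomal genes leaned toward CD9+ macrophages, with 13 of 29 higher, none lower and a median of 0.70. Ctss, cathepsin S, which trims the invariant chain of MHC class II, had 1161 and 1305 CPM against 226 and 139 (2.75 ± 0.24). Psap, the precursor of saposins, had 2164 and 3492 against 1290 and 1095 (1.25 ± 0.19), and was not called without the second CD9+ library (0.86). Ctsd did not pass the test (306 and 434 against 484 and 423). The proton pump that acidifies the lysosome did not lean this way: 1 of 16 subunit genes was higher and 2 were lower (1 with library size scaling). These counts also changed when single libraries were left out.

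Phagocyte oxidase genes were lower: 5 of 8 components of the superoxide-producing complex were lower and none higher (median -1.25). Ncf1 had 674 and 477 CPM against 2579 and 2043 (-2.01 ± 0.17), and Cybb, the catalytic subunit, had 1097 and 715 against 2454 and 1582 (-1.16 ± 0.21), each without overlap. Cybb was not called without the second CD9+ or the first neutrophil library (-0.88 and -0.79), nor with library size scaling (-0.81). Of 13 eicosanoid genes, 5 were lower, with Alox5, the first enzyme of leukotriene synthesis, at 111 and 71.5 against 604 and 503 (-2.60 ± 0.20) and Ptgs2, cyclooxygenase 2, at 237 and 370 against 847 and 1491 (-1.95 ± 0.26). The 2 that were higher were Tbxas1 and Alox15, which is described with the eosinophil genes. Complement receptors divided as the chemokine receptors did: C3ar1 was 20.4-fold higher in CD9+ macrophages and C5ar1 4.81-fold lower, and C3 itself was lower (1350 and 1032 against 3681 and 3382 CPM).

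Matrix-degrading enzymes were present in both cells but differed in kind. Of 12 metalloproteinase and inhibitor genes, 5 were higher and 5 lower in CD9+ macrophages. Beside the granule enzymes Mmp8 and Mmp9, Timp2, an inhibitor, was lower, with 24.0 and 10.3 CPM against 179 and 221 (-3.52 ± 0.33). Mmp14, the membrane-bound collagenase, had 152 and 241 against 10.7 and 13.3 (4.04 ± 0.29), and Mmp19 had 223 and 428 against 35.6 and 40.3 (3.10 ± 0.31). Of 11 repair growth factors, 4 were higher (6 with library size scaling) and 1 lower: Areg, amphiregulin, was at 3.88 and 9.37 CPM against 0.0747 and 0.175, Pdgfa, Pdgfb and Vegfb were the others that were higher, and Osm, oncostatin M, was lower (181 and 277 against 637 and 619). Tgfb1 (243 and 316 against 123 and 174) and Vegfa (254 and 397 against 404 and 594) did not reach a log2 fold change of 1, although Tgfb1 was called without the first CD9+ library (1.09) or the second neutrophil library (1.18).

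Of 15 integrins, which hold cells to matrix and vessel walls, 6 were higher and 4 lower (2 with library size scaling). Among all tested genes 27.9% were higher and 21.7% lower. The β2 integrin chains Itgb2, Itgam and Itgal, by which neutrophils adhere to endothelium, were lower in CD9+ macrophages (-1.14, -1.48 and -1.34), with Itgb2 not called without the first CD9+ or the first neutrophil library (-0.99 and -0.91). Itga1, a collagen receptor chain, had 97.2 and 139 CPM against 11.9 and 6.21 (3.69 ± 0.27), and Itgb7 had 94.9 and 177 against 21.0 and 16.6 (2.85 ± 0.23). Over 13 tetraspanins, the family of Cd9, 5 were lower and 3 higher, beside the same shares of all genes. Cd53, Cd82 and Cd37 moved with Cd9 (-2.29, -2.15 and -1.69), and Tspan3 was higher (4.39).

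Genes of glycolysis were mostly lower in CD9+ macrophages. Of 22, 15 were lower and 1 was higher (median -1.29), and with library size or upper quartile scaling 11 were lower. Slc2a3, the high affinity glucose transporter, had 72.2 and 54.5 CPM against 1790 and 1701 (-4.78 ± 0.24, adjusted p = 1.19e-09). Hk2, hexokinase, had 157 and 253 against 642 and 745 (-1.76), while Gapdh (558 and 729 against 1565 and 1328) and Ldha (347 and 487 against 990 and 889) lay near the threshold and were not called without the first CD9+ library (-0.99 and -0.95). Pfkm, the muscle form of phosphofructokinase, was the only member that was higher, at 5.07 and 7.05 against 2.17 and 1.05. Of 13 genes that respond to low oxygen, 10 were lower and 1 was higher (median -2.01). Egln3, a prolyl hydroxylase that senses oxygen, had 64.0 and 96.3 against 542 and 669 (-2.92 ± 0.22), and Bnip3, a mitochondrial receptor of autophagy, had 85.2 and 81.2 against 524 and 525 (-2.66 ± 0.13). Hif1a itself did not pass the thresholds (470 and 524 against 512 and 674).

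Genes of protein synthesis and cell division were higher in CD9+ macrophages. Of 75 cytosolic ribosomal protein genes, 63 were higher and none lower (median 1.66), and of 20 ribosome biogenesis genes, 17 were higher and none lower (2.14). Npm1, a nucleolar chaperone, had 319 and 250 CPM against 49.1 and 39.7 (2.68 ± 0.17), and Rps27 was the ribosomal protein gene farthest on the other side, at 154 and 103 against 246 and 163. All 20 cell cycle genes tested were higher, at log2 fold changes from 1.28 (Pcna) to 2.97 (Mcm2). Mki67 (chr7:135689784-135716361), a protein of dividing nuclei, had 2290 and 1511 against 685 and 492 (1.69 ± 0.22, adjusted p = 5.76e-06), and Mcm2, a subunit of the replicative helicase, had 106 and 113 against 17.3 and 10.6 (2.97 ± 0.24). Mki67 averaged 1617 CPM in CX3CR1+ macrophages and 2722 in F4/80− cells and differed from CD9+ macrophages in neither at the thresholds.

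Most mitochondrial genes did not pass the thresholds. Beside the 27.9% of all tested genes that were higher and the 21.7% that were lower, the share of higher genes was near the former in 2 of 3 lists. In complex I, 15 of 36 genes were higher and none lower (median 0.66), in complexes II to V 11 of 37 were higher and none lower (0.77), and in the tricarboxylic acid cycle, with Sdha and Sdhb counted in both, 5 of 18 were higher and none lower (0.69). These counts were not stable: without the second neutrophil library 4 genes of complex I and 6 of complexes II to V were higher, without the first CD9+ library 2 and 3 genes were lower, without the first neutrophil library 17 genes of complexes II to V were higher, and with library size scaling 19, 21 and 9 genes of the 3 lists were higher. Larger differences were those of Idh2, isocitrate dehydrogenase, at 61.2 and 61.7 CPM against 6.35 and 5.51 (3.37 ± 0.16), and Fh1, fumarase, at 38.3 and 41.8 against 9.19 and 4.29 (2.55 ± 0.25). Of 21 cholesterol synthesis genes, 6 were lower (3 with library size scaling, 4 without the first neutrophil library) and 2 higher.

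Of 28 myeloid transcription factors, 10 were higher, 8 were lower and 10 did not pass, beside 27.9% higher and 21.7% lower among all tested genes. Irf8, which directs monocyte fate, had 173 and 198 CPM against 12.3 and 10.1 (4.05 ± 0.20), and Klf4, a monocyte factor, had 347 and 329 against 32.0 and 36.1 (3.31 ± 0.23). Egr1, an immediate early factor, had 368 and 263 against 2227 and 3725 (-3.24 ± 0.23). Cebpb, a factor of emergency granulopoiesis and of activated macrophages, was lower by the test (-2.57 ± 0.66, adjusted p = 0.00295) but had 205 and 250 CPM against 214 and 2493, so the difference rested on the second neutrophil library and was 0.085 without it. Spi1, which encodes PU.1 and is needed by both lineages, was just short of the fold threshold (310 and 325 against 647 and 603) and reached it without the second library of either cell (-1.01 and -1.03). In the BCL2 family, Mcl1, the survival factor on which neutrophils depend, was lower in CD9+ macrophages (835 and 906 against 2483 and 3479), as were 4 others of 14, while Bax and Bmf, which promote cell death, were higher. Bax had 7.54 and 14.8 CPM against 3.66 and 6.39, and Bmf had 16.1 and 41.7 against 11.4 and 11.1. Neither was called without the second CD9+ library (log2 fold changes of 0.59 and 0.51), nor Bax without the first neutrophil library (0.81), and with library size scaling 3 genes of the family were higher and 4 lower.

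The largest differences in favor of neutrophils included genes of no list. Asprv1, an aspartic protease better known from skin, had 0.916 and 0.105 CPM in CD9+ macrophages and 336 and 287 in neutrophils (-9.04 ± 0.52, adjusted p = 3.48e-09). St3gal6, a sialyltransferase that helps build selectin ligands, had 0 and 0.421 against 74.7 and 131 (-9.16 ± 0.60). Gpc3, glypican 3, had 0.141 and 0.421 against 98.5 and 72.8 (-8.33 ± 0.66). These 3 were near 0 in the macrophages and clearly expressed in both neutrophil libraries. Egr3 (5.85 and 9.26 against 335 and 563), Amer2 (5.07 and 2.74 against 227 and 280), Steap4, Rufy4 and Sycp2 followed. H2-Q10, Ifit1bl2 and Stfa2l1 were named by the same rule, but they have near-identical relatives, so the split of reads between copies is uncertain.

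The largest differences in favor of CD9+ macrophages were led by genes of another granulocyte. Among the 15 that the naming rule gives, 5 were of the eosinophil list (Epx, Prg2, Alox15, Ear1 and Ear6), 2 were antibody genes (Igkc and Jchain) and 2 were the platelet chemokines described above. Epx (chr11:87864000-87875536), eosinophil peroxidase, had 151 and 139 CPM in CD9+ macrophages and 0.598 and 0.175 in neutrophils (8.46 ± 0.85, adjusted p = 4.98e-07). Prg2, the major basic protein of the eosinophil granule, had 280 and 388 against 0.822 and 2.89 (7.53 ± 0.70). Alox15, a lipoxygenase of eosinophils and of some macrophages, had 102 and 128 against 0.897 and 1.57 (6.55 ± 0.30).

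Of the 10 eosinophil markers, 9 were higher in CD9+ macrophages and Siglecf, a surface lectin used to gate eosinophils, was lower (25.4 and 16.7 against 44.6 and 40.6, -1.01 ± 0.27), a call that was lost without the second CD9+ library (-0.75) or the first neutrophil library (-0.93) and with library size scaling (-0.66). Their summed level was 765 and 803 CPM in CD9+ macrophages, 68.8 to 71.9 in neutrophils, 36.8 to 79.6 in CX3CR1+ macrophages and 73.2 to 75.5 in F4/80− cells, and no marker was at 0 in all 4 compared libraries. Both CD9+ libraries were thus far above each other day 1 population, and they were alike in this. Genes of basophils and mast cells were also higher, 5 of 6, with Cpa3, a mast cell and basophil carboxypeptidase, at 23.7 and 14.6 CPM against 1.42 and 0.787 (4.09 ± 0.42), and Hdc, histidine decarboxylase, lower (107 and 47.8 against 1144 and 1383). Mcpt8, a basophil protease, averaged 206 CPM in F4/80− cells. The lineage markers that the study lists are those of T, B and NK cells, red cells and progenitors, the last by CD34 and c-Kit, a receptor that mast cells also carry. No eosinophil or basophil antigen is among them, and the part of these cells in the differences of this comparison was not tested.

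**Figure D4:**
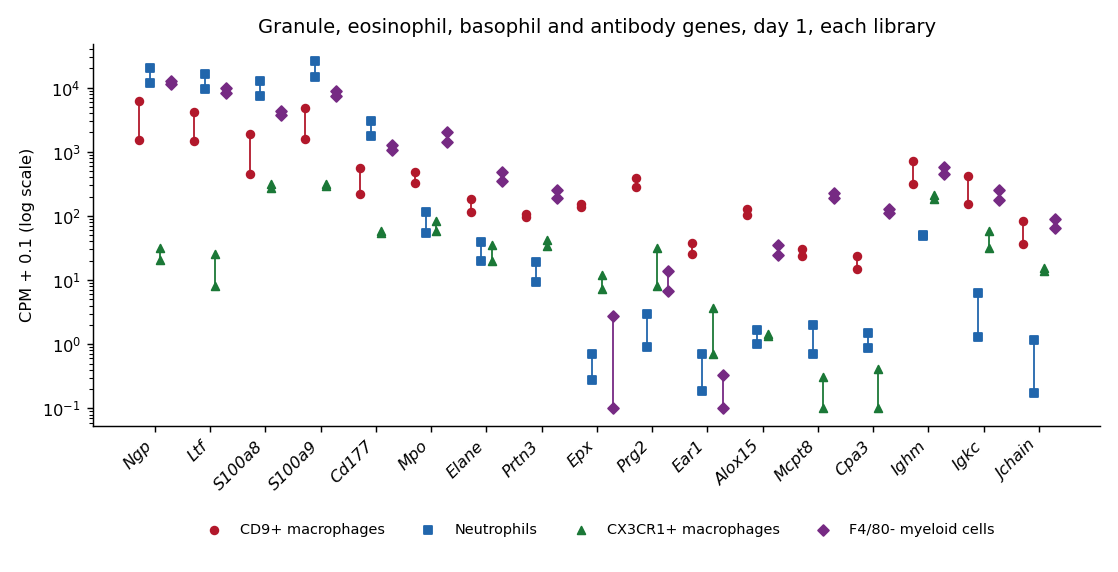
CPM plus 0.1 on a log scale of granule, eosinophil, basophil and antibody genes in each day 1 library of the 4 sorted populations; each symbol is 1 library and a line joins the 2 libraries of a population. Epx, Prg2 and Ear1 are highest in CD9+ macrophages, while the specific granule genes Ngp and Ltf are highest in neutrophils, and for Mpo, Mcpt8 and Cpa3 the F4/80− cells are highest.

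Antibody transcripts separated the populations and the CD9+ replicates. Ighm, the IgM heavy chain, had 729 and 317 CPM in CD9+ macrophages and 50.2 and 47.8 in neutrophils (3.42 ± 0.29), and it averaged 196 in CX3CR1+ macrophages and 515 in F4/80− cells. Ighg2c had 267 CPM in the first CD9+ library and no count in the second, and Igha had none in the first and 64.4 in the second. Both passed the test as higher in CD9+ macrophages although a CD9+ library without counts overlapped the neutrophils, and without the library that held the counts their log2 fold changes were -3.30 and -3.86. Of 7 B cell markers, 2 were tested and only Ighm was called, and Cd79b was at 0.916 and 0.842 CPM. Among T and NK cell markers, Cd3d and Nkg7 were tested, at 0.0705 and 0 and at 7.89 and 4.53 CPM in CD9+ macrophages, and none of 5 tested erythroid markers was called.

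Dendritic, stromal and muscle genes were few in counts. Osteoclast markers summed to 210 and 116 CPM in CD9+ macrophages and 14 and 14.1 in neutrophils. All 5 tested osteoclast markers were higher in CD9+ macrophages, led by Ctsk, cathepsin K, with 98.8 and 32.0 CPM against 0.523 and 1.49 (6.06 ± 1.30), but 3 of the 5 were called without the first CD9+ library and without either neutrophil library. Of 7 dendritic cell markers 4 were higher. Of 6 stromal, bone and endothelial markers 2 were lower (1 with library size scaling), and Col1a1 had 3.74 and 1.26 CPM against 30.8 and 10.1, with neither called without the second CD9+ or the first neutrophil library. Sums were taken over all genes of a list in the deposited counts, tested or not. The summed stromal level was 37.3 and 35.9 CPM in CD9+ macrophages and 81.2 and 34.1 in neutrophils, and muscle markers summed to 13.3 CPM or less in all 4.

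Some genes lay close together in both cells. In 1929 of the tested genes (16.1%) the adjusted p was above 0.05 and the whole 95% interval of the log2 fold change lay between -1 and 1. Thbs1, thrombospondin 1, had 5313 and 10762 CPM against 7009 and 8863 (0.02 ± 0.26). Fos, an immediate early factor, had 1545 and 1913 against 1946 and 1575 (-0.03 ± 0.15), and Lyz2, lysozyme, had 4156 and 3764 against 6043 and 3486 (-0.27 ± 0.20). The libraries of both cells overlapped in each. Cltc, clathrin heavy chain, and Eif4g2, a translation factor, had log2 fold changes of 0.01 and -0.02.

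The CD9+ replicates differed in genes that can be named. Among genes with a mean of 30 CPM or more, those highest in the first library relative to the second were Ighg2c, the replication-dependent histones Hist1h2ai, Hist1h2ab, Hist1h2ae and Hist2h3b, and S100a8, Ifitm6 and Ngp. Those highest in the second were Igha, Lars2, Adamtsl4, Nrp1, Ptms, Scarna2, Zdhhc7 and n-R5-8s1. Hist1h2ab had 352 and 56.7 CPM, and Lars2, a mitochondrial tRNA synthetase, had 620 and 3208, beside 1171 and 636 in neutrophils.

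On day 14 the same 2 gates differed in about as many genes, 5940 (49.5%), of which 29.6% of all genes were higher and 19.9% lower in CD9+ macrophages. The change of the difference between days was tested as an interaction and was called in 963 genes (8.03%), with 804 (6.70%) shifted toward CD9+ macrophages on day 14 and 159 (1.33%) toward neutrophils. Several inflammatory ligands that were lower in CD9+ macrophages on day 1 were not lower on day 14. Ccl3 on day 14 had 110 and 102 CPM in CD9+ macrophages and 65.9 and 59.3 in neutrophils, so its difference went from -3.95 to 0.76 (interaction 4.70 ± 0.36, adjusted p = 2.18e-06). Csf1 went from -3.94 to 0.32 (4.26 ± 0.31), with 71.6 and 70.0 against 56.4 and 57.1 CPM. In both genes the neutrophil levels of day 14 were more than 10-fold under those of day 1, and the CD9+ levels lay close to those of day 1.

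Tnf (interaction 2.31 ± 0.33) and Cxcl2 (1.86 ± 0.45) shifted as well and were still lower in CD9+ macrophages on day 14, at log2 fold changes of -1.10 and -1.31. Cxcl3 changed sides, from -1.60 to 1.96. Il1b did not follow: it had 72.8 and 78.3 CPM against 1618 and 1648 on day 14, and its difference went from -3.59 to -4.43, short of the fold threshold (-0.85 ± 0.25). A shift toward CD9+ macrophages was called in 7 of 22 glycolysis and 7 of 13 low-oxygen genes, among them Bnip3 (from -2.66 to -0.19) and P4ha1, a collagen prolyl hydroxylase (from -2.03 to 2.87).

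Macrophage genes shifted too. In the macrophage identity list 11 of 20 genes shifted toward CD9+ macrophages and 1 toward neutrophils. The summed level of the list was nevertheless lower on day 14 in both populations. It went from 3877 and 5508 CPM to 2480 to 3859 in CD9+ macrophages and from 3703 and 4051 to 1344 to 1368 in neutrophils. C1qb on day 14 had 107 and 183 CPM against 1.44 and 0.308 (7.42 ± 0.62, from 3.94), and the shift was called (3.49 ± 0.81). Abca1, not called on day 1, was 129 and 227 against 5.40 and 10.1 on day 14 (interaction 4.48 ± 0.48). The MHC class II genes Cd74 and H2-Ab1 shifted by 1.85 and 1.61. No shift was called in the 20 cell cycle genes, in the 36 complex I and 37 complex II to V genes or in the 4 neutrophil markers of the study.

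Thbs1 led the named genes that shifted toward neutrophils. Not called on day 1, it had 877 and 968 CPM in CD9+ macrophages and 7597 and 6876 in neutrophils on day 14 (interaction -2.99 ± 0.37, adjusted p = 0.000155). Arg2 and the receptor gene Fpr1 shifted the same way (-2.78 and -2.19). No shift was called in Epx and Prg2 (-0.11 ± 1.12 and 0.88 ± 0.92), while their level in CD9+ libraries went to 1810 and 3056 and to 3913 and 6216 CPM, and the summed eosinophil level there was 7600 to 12238 CPM on day 14. Of the 10 eosinophil markers, 4 shifted toward CD9+ macrophages, and the part of eosinophils in the change between days was not tested.

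**Figure D5:**
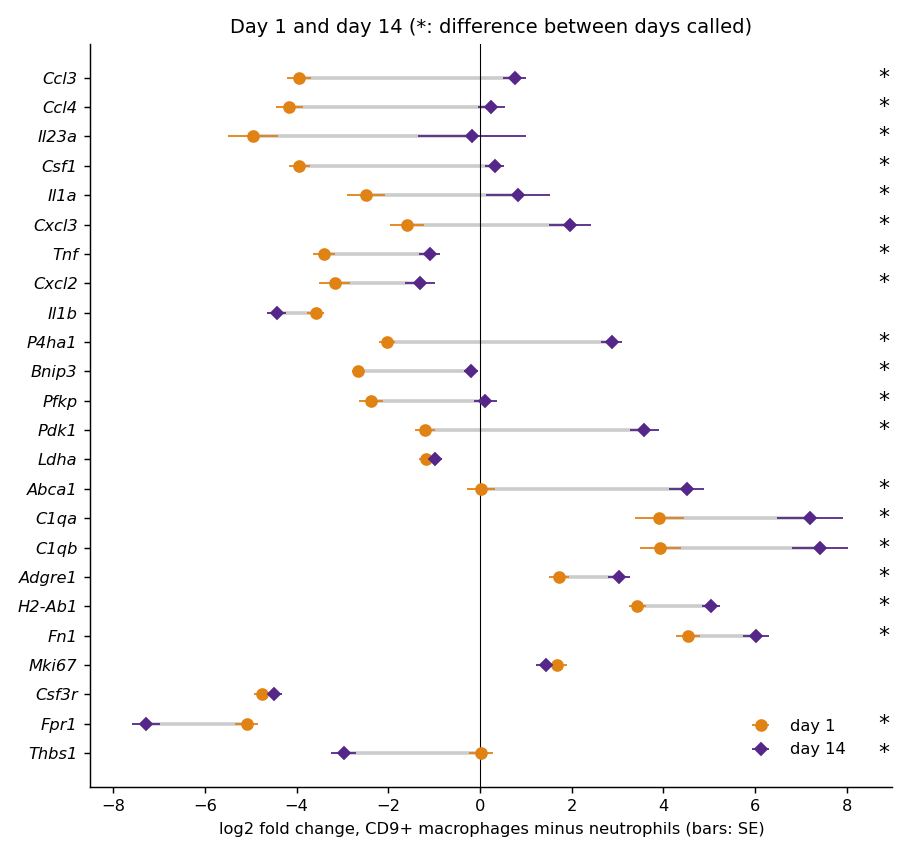
Log2 fold change of CD9+ macrophages minus neutrophils on day 1 (orange circles) and day 14 (purple diamonds), 2 libraries a group, with bars of 1 SE; an asterisk marks genes whose difference between days was called. Ccl3, Ccl4 and Csf1 move from far below 0 to about 0, the macrophage genes C1qa and C1qb lie further above 0 on day 14, and no shift was called for Mki67, Csf3r, Ldha and Il1b.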

How the data were processed

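Bulk RNA-seq libraries were read from the table of raw counts per gene that the authors deposited. Per the study's methods, sorted cells were lysed, RNA was extracted with the RNeasy plus micro kit, libraries were made with the SMART-Seq Stranded Kit and sequenced paired-end, and reads were trimmed with Cutadapt, checked with FastQC, aligned with STAR to mm10 and counted over exons of Gencode M23. The strand setting of the counting is not given in the sources used here.

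Counts of all 16 libraries (8 groups of 2) were fitted in 1 model with edgeR 4.0.16 (glmQLFit and glmQLFTest, R 4.3.3, limma 3.58.1) and TMM factors. A gene was tested when its mean CPM reached 3 in at least 1 group, which kept 11998 of 20200 genes and removed 8202. Adjusted p-values are Benjamini-Hochberg values of edgeR over all tested genes, and calls required an adjusted p below 0.05 and a log2 fold change of at least 1 in either direction. The same model gave the day 14 minus day 1 interaction and the comparisons with CX3CR1+ and F4/80− cells. A ± is 1 standard error of the fit unless named otherwise, and n is 2 libraries a group. Nothing in the labels says that libraries of a group came from separate operations, so p-values measure the spread between these libraries. A fold against a group without counts was set against 3 counts per library.

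Genes were named by rule: the genes of the gates, the 15 largest differences in each direction among called genes without overlap and a mean of at least 30 CPM in the higher population, the 15 highest genes with a 95% interval within -1 and 1, the 8 genes with the largest ratio between the CD9+ libraries in each direction, members of 50 gene lists that lead, bound or go against their list, and the largest shifts between days. List members outside this rule were named where a result turned on them, after their values were seen, and a few genes that the rule names are not reported here. The members of the comparison, the lists and the rule were chosen with earlier results of these data known. Marker lists of other cell types were fixed among the 50. Promoters were taken from RefSeq (GRCm38.p6), which held 572 of the 742 list genes.

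The fitting code was tested on simulated counts. Alternatives were other scalings (library size, upper quartile, RLE), DESeq2 1.42.0, other filters, the 4 libraries alone, a replicate block, and each library left out.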

Additional observations from a re-analysis of the deposited data

Results flagged for a closer look

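For 73 of the genes named in the text, the difference between CD9+ macrophages and neutrophils was not the same on day 1 and day 14 by the interaction test of edgeR at an adjusted p below 0.05 and a log2 difference of at least 1. Each value that follows is the log2 fold change of day 14 minus that of day 1, so a positive value is a shift toward CD9+ macrophages.

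Among chemokines and cytokines the shift was 4.70 in Ccl3, 4.41 in Ccl4, 1.37 in Ccl2, 3.22 in Cxcl16, 1.86 in Cxcl2 and 3.56 in Cxcl3. It was 4.26 in Csf1, 2.31 in Tnf, 4.77 in Il23a, 3.31 in Il1a, 3.60 in Il1bos and 1.08 in Il1rn, and -1.40 in Osm. Their receptors shifted by 1.26 (Ccr2), 2.48 (Ccr3) and 1.64 (Cx3cr1), whereas Fpr1 shifted by -2.19.

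Among macrophage and monocyte genes the shift was 1.31 in Adgre1, 1.26 in Cd14, 1.61 in Cd68, 3.29 in C1qa, 3.49 in C1qb, 3.13 in C3ar1, 2.52 in Lgmn and 1.32 in Msr1. Cd14 and Cd68 had been lower or not called on day 1. It was 1.49 in Fn1, 1.57 in F13a1, 2.69 in F10, 1.46 in Metrnl and -1.07 in Klra2. The transcription factors Irf8 (1.22), Klf4 (1.66), Egr1 (1.34) and Egr3 (3.25) shifted toward CD9+ macrophages.

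Among genes of lysosomes, antigen presentation and lipids the shift was 2.48 in Ctss, 1.85 in Cd74, 1.57 in H2-Aa, 1.61 in H2-Ab1, 1.38 in H2-Eb1, 4.48 in Abca1, 1.49 in Spp1 and 1.10 in Cd9. The endosomal receptor Tlr9 shifted by 1.43. Cd9 RNA had 142 and 183 CPM in CD9+ macrophages and 345 and 346 in neutrophils on day 14, so it was still lower in the cells sorted for the protein.

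Among metabolic genes the shift was 4.41 in Arg1, -2.78 in Arg2, 4.58 in Nos2, 2.09 in Acod1, 1.42 in Slc2a3, 1.12 in Hk2, 1.31 in Idh2, 2.73 in Steap4 and -1.95 in Ptgs2. In low-oxygen genes it was 2.46 in Bnip3, 1.71 in Egln3 and 4.90 in P4ha1. Arg1 was at 33.4 and 43.9 CPM in CD9+ macrophages and 0.120 and 0 in neutrophils on day 14, so few counts stand behind the value of the latter.

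Among matrix and adhesion genes the shift was 2.35 in Mmp14, 2.89 in Mmp19, 2.29 in Timp2, 2.17 in Itga1, -2.99 in Thbs1 and -1.93 in Mmp8. Among granule genes and markers of other cells it was 1.75 in Mpo, -1.21 in Chil3, 2.84 in S100a10, 4.02 in Ear6, 2.87 in Siglecf, 1.45 in Hdc, 2.10 in Nkg7 and -2.80 in Jchain. Of the genes far higher in neutrophils on day 1, the shift was 3.44 in Asprv1, 3.45 in St3gal6, 3.78 in Rufy4 and 12.44 in Gpc3. Gpc3 had no count in neutrophils on day 14, so its value depends on the prior count of the fit and is no bound.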

How the results depend on the processing

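The number of DEGs on day 1 ran from 5353 to 6028 when each library was left out in turn (2937 to 3364 higher and 2416 to 2777 lower in CD9+ macrophages). With the 4 compared libraries alone, where the spread came from these libraries only, 10778 genes were tested. Of these, 4993 were called (2879 higher and 2114 lower), and 5882 had an adjusted p below 0.05 in edgeR's test without a fold threshold. A fit with a replicate block gave 5897 (3288 higher and 2609 lower) and 989 shifts between days. Over the tested genes, the log2 difference between the first and second CD9+ library had a Pearson correlation of 0.0656 with that in neutrophils. This value cannot decide whether same-numbered libraries came from the same mice. Under the block Csf1r (just under the fold threshold), H2-Ob (1.65) and Hist1h2ai (2.09) were not called and Cxcl1 (1.07) and Orm1 (-1.01) were. With the filter met in every group, 7687 genes were tested and 3010 called, 1755 higher and 1255 lower. That filter leaves out each gene with a mean CPM under 3 in any group, also where it is high in another. An adjusted p alone, without a fold threshold, gave 8307, of which 4042 were lower. Of the 198 genes named in the text, 168 were called on day 1 and 155 to 166 without 1 library, and 83 with the filter in every group. Over all alternatives 21 genes lost a call and 9 gained one. The sign changed in 17 of the 30 genes that were not called, and of the called genes the direction turned in 4: Cebpb ran from -3.44 to 0.085, Hist1h2ai from -0.12 to 3.73, Igha from -3.86 to 11.75 and Ighg2c from -3.30 to 11.54 when each library was left out. The shifts between days were 1190 with DESeq2, 1120 with library size scaling, 984 with upper quartile factors and 979 with RLE factors; single libraries were left out for the day 1 comparison only. With 1 library left in a group, it was assumed to vary like the other groups. With 2 pooled libraries a group, genes of few counts carry wide errors.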
